A study of Saccharomyces cerevisiae with 15 samples.

Results

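The 26S proteasome of budding yeast, Saccharomyces cerevisiae, is followed here through its subunit genes in cells exposed to arsenite. Members were the genes of the 20S core, the base and the lid, chosen by the gene symbol that the array platform gives each spot. Of 33 such genes, 32 were measured among 5539 named genes, each by 2 spots whose values were averaged, and SEM1, a small lid subunit, was not analysed here. They were 14 core genes (7 of the alpha ring and 7 of the beta ring), 9 base genes, 8 lid genes and RPN10, which sits between base and lid and was counted in neither.

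Wild-type cells held in 1.0 mM arsenite, As(III), for 15 min (3 arrays), 30 min (3), 1 h (6) or 18 h (3) were each compared with untreated wild-type cells, whose total RNA was hybridised on the same 2-colour array. Treated RNA carried the dye Cy5 on 12 arrays and Cy3 on 1 h replicates 1, 3 and 6. The sources used here do not give the strain, the growth conditions or the time at which untreated cells were harvested. Separate cultures are not stated for the replicates, so p-values measure only the spread between these arrays, which may be technical.

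The proteasome degrades proteins that carry ubiquitin chains. Its barrel-shaped core has outer alpha rings that gate the entry and inner beta rings that hold the proteolytic sites. The base, built around a ring of ATPases named RPT1 to RPT6, unfolds substrates and feeds them into the core, and the lid removes their ubiquitin. Arsenite damages proteins by binding thiols. In yeast, the short-lived transcription factor Rpn4 activates the subunit genes together through a shared promoter element and is itself degraded by the proteasome.

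All values are log2 ratios, likely of arsenite over untreated cells, a direction read from the dyes and the titles. The array medians over genes as deposited ran from -1.35 to 2.23, so each array was centred on its median gene and every value is relative to that gene. The time points were fitted together in limma with a dye effect per gene, and genes with an adjusted p under 0.05 were called. Errors of fitted values are limma standard errors (SE). At 15 min, 30 min and 18 h the fitted value is the mean of 3 Cy5 arrays less the dye effect learned at 1 h, and the fitted value exceeded that mean in 30 of 32 members at each of these times. Across genes, which share their arrays and are no replicates, pairs of arrays of a time point had r of -0.06 to 0.23 at 15 min, 0.41 to 0.93 at 30 min, 0.72 to 0.89 at 1 h and 0.45 to 0.73 at 18 h. Duplicate spots correlated least on 15 min replicate 1 (0.647), 30 min replicate 1 (0.837) and 18 h replicate 3 (0.876), against 0.932 to 0.991 elsewhere.

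After 1 h in arsenite, 26 of the 32 subunit genes were called higher than in untreated cells and 0 lower, where 17.1% of all genes were called higher. These calls are relative to the median gene: with the arrays left at their deposited level, 2 members were called higher and 1, RPN10, lower, and on the Cy5 arrays alone 17 were higher. The members' median fitted log2 ratio was 1.07, a 2.11-fold difference, against 0.02 over all genes. The increase was more than 2-fold in 18 of the 26. All 6 arrays lay above 0 for 26 members, where 20.6% of all genes had this. The 6 members not called were PRE9, PRE5, RPT6, RPN13, RPN9 and RPN10. As the values come from whole cultures, a change in a share of the cells and a change in RNA per cell cannot be told apart.

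**Figure D1:**
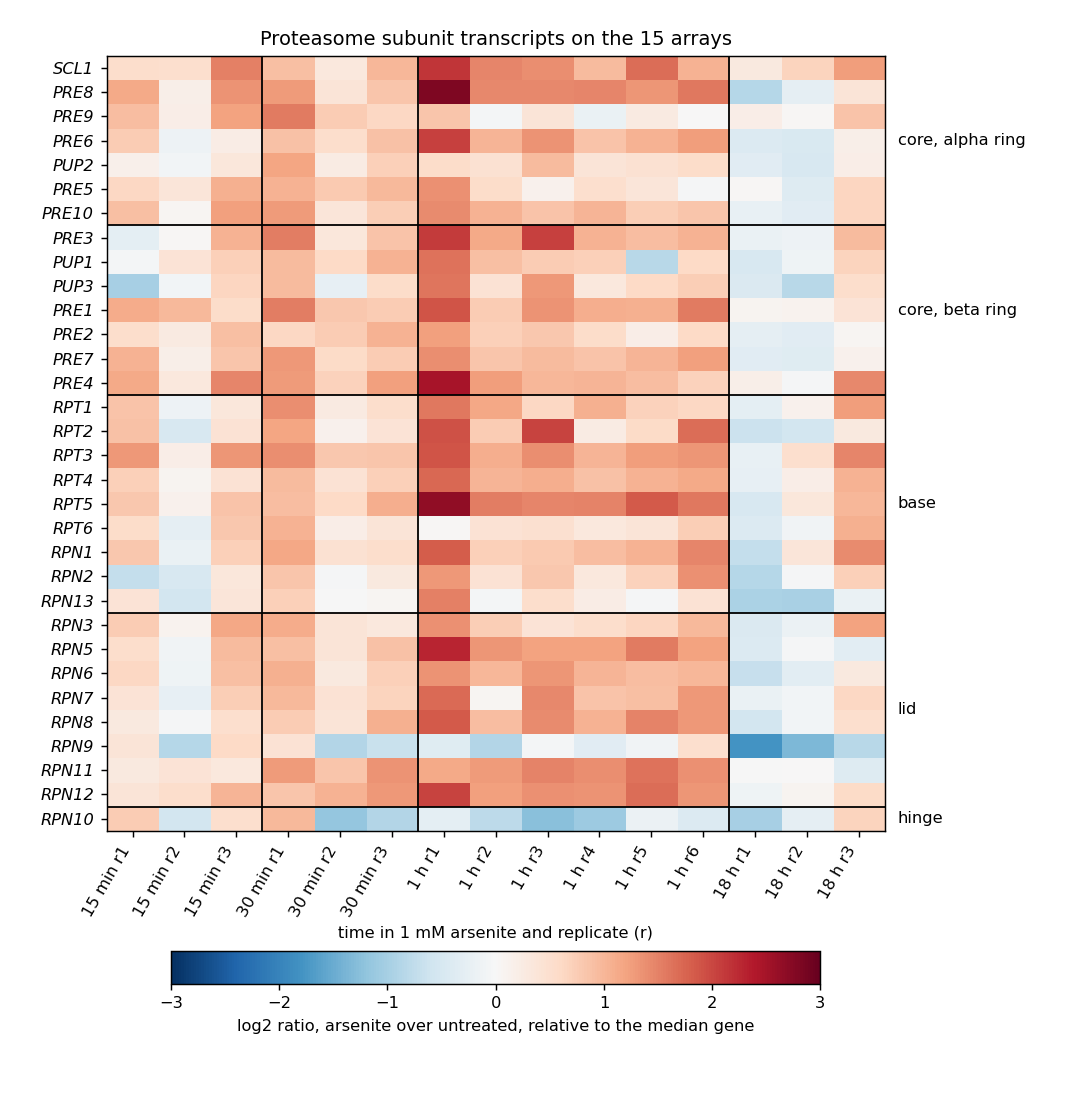
Log2 ratios (arsenite over untreated, centred on the median gene) for the 32 measured subunits (rows, by subcomplex, with RPN10 marked as hinge) on the 15 arrays (columns, by time and replicate). The 1 h columns are mostly red, RPN9 and RPN10 stand out as rows mostly in blue at 1 h (a sign that turns with the brightness trend removed), and the 18 h columns are mostly pale, with replicate 3 redder than the other 2.

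In the alpha ring, which forms the gate of the core, 5 of 7 genes rose at 1 h. PRE8 had 1 h log2 ratios with a lowest value of 1.32, a median of 1.45 and a highest value of 2.80, and a fitted value of 1.67 ± 0.22 (SE), 3.19-fold, with an adjusted p of 1.5e-05. SCL1 followed at 1.45 ± 0.19 (2.73-fold), PRE6 at 1.26 ± 0.16 (2.39-fold) and PRE10 at 0.98 ± 0.19 (1.98-fold). PUP2 rose less, by 0.56 ± 0.15 (1.47-fold, adjusted p = 0.0073), and not centred its mean was 0.01. With centring, these 5 genes were above 0 on every 1 h array.

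PRE9 and PRE5 were the alpha ring genes that did not pass. PRE9, without which the core can still assemble with a further copy of the PRE6 protein in its place, ranged at 1 h from -0.19 to 0.83 with a median of 0.15. Its fitted value was 0.21 ± 0.18 (adjusted p = 0.38), and 4 of its 6 arrays were above 0. PRE5 ranged from -0.03 to 1.37 with a median of 0.44, and its fitted value of 0.48 ± 0.19 missed the threshold narrowly (adjusted p = 0.051). Both turned below 0 when the arrays were not centred, to -0.34 for PRE9 and -0.066 for PRE5.

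All 7 beta ring genes rose at 1 h relative to the median gene. Not centred, their means ran from 0.08 (PUP1) to 0.83 (PRE3), and none was called. PRE3, which carries the caspase-like site, had a lowest value of 0.93, a median of 1.10 and a highest value of 2.10, with a fitted value of 1.38 ± 0.22 (2.61-fold, adjusted p = 0.00011). PUP1, which carries the trypsin-like site, had the lowest fitted value of the ring, 0.63 ± 0.23 (1.54-fold, adjusted p = 0.038), with a lowest array of -0.84, a median of 0.74 and a highest array of 1.62. The array below 0 was 1 h replicate 5, and the call of PUP1 was lost without 1 h replicate 1, 2, 3 or 4 (fitted values of 0.46 to 0.68, adjusted p of 0.057 to 0.16). PRE2, which carries the chymotrypsin-like site, rose by 0.68 ± 0.14 (1.61-fold, adjusted p = 0.0013). The catalytic genes thus spanned the ring's range, and among the structural beta subunits PRE1 rose by 1.29 ± 0.15, PRE4 by 1.22 ± 0.24, PRE7 by 1.05 ± 0.15 and PUP3 by 0.84 ± 0.23.

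In the base, 7 of 9 genes rose at 1 h, among them 5 of the 6 ATPases. RPT5, an ATPase whose tail docks in the alpha ring and helps to open the gate, had the highest fitted value of all members, 1.76 ± 0.20 (3.40-fold, adjusted p = 4.1e-06). Its arrays had a lowest value of 1.47, a median of 1.56 and a highest value of 2.66. RPT3 rose by 1.33 ± 0.21, RPT2 by 1.20 ± 0.20, RPT4 by 1.15 ± 0.17 and RPT1 by 0.96 ± 0.22. RPT2 had the dye effect largest in size among the members (-0.67). At 1 h it had 1.91, 2.02 and 1.68 on the Cy3 arrays and 0.75, 0.25 and 0.57 on the Cy5 arrays, which did not overlap. The Cy3 arrays also lay above all Cy5 arrays in PRE1, PRE6, PUP2, PUP3, RPT3, RPT4, RPN2, RPN7 and RPN13. The share of all genes with such a split was not counted. The dye effect was called in 0 of all genes. Its median was -0.05 over all genes and -0.18 over the members.

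The genes of the scaffold proteins of the base also rose at 1 h relative to the median gene. RPN1, which docks shuttle factors that bring ubiquitinated proteins, was 1.12 ± 0.23 (2.18-fold), and RPN2, on which the ubiquitin receptor RPN13 sits, was 0.82 ± 0.20 (1.77-fold). RPN13 itself ranged from -0.07 to 1.51 at 1 h with a median of 0.32, and its fitted value of 0.43 ± 0.19 was not called (adjusted p = 0.081). The ATPase RPT6 ranged from 0.04 to 0.73 with a median of 0.41. All its arrays lay above 0, but its fitted value of 0.39 ± 0.20 was not called (adjusted p = 0.13). Not centred, RPT6 and RPN13 were -0.16 and -0.12.

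Of the 8 lid genes, 7 rose at 1 h. RPN12, among the last subunits to join the lid in assembly, had the highest fitted value, 1.50 ± 0.15 (2.82-fold, adjusted p = 1.6e-06), with arrays from 1.23 to 2.03 and a median of 1.36. RPN11, the deubiquitinase that cuts ubiquitin chains off substrates, had arrays between 1.14 and 1.62 with a median of 1.38 and rose by 1.38 ± 0.13 (2.61-fold, adjusted p = 6.7e-07). It had the smallest adjusted p of any member. RPN8, the partner of RPN11 in a heterodimer, rose by 1.34 ± 0.16 (2.53-fold). The PCI-domain scaffold genes RPN5, RPN6, RPN7 and RPN3 rose by 1.46 ± 0.18, 1.10 ± 0.17, 1.04 ± 0.17 and 0.77 ± 0.21.

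RPN9 and RPN10 were the members with fitted values below 0 at 1 h. RPN9, a further PCI-domain lid gene, ranged from -0.87 to 0.50 with a median of -0.22 and had a fitted value of -0.21 ± 0.22 (adjusted p = 0.49). RPN10, a ubiquitin receptor that also steadies the contact of base and lid, was below 0 on all 6 arrays, from -1.25 to -0.17 with a median of -0.60. Its fitted value of -0.67 ± 0.28 (0.63-fold) was not called (adjusted p = 0.071). With the brightness trend described below removed, RPN9 was 0.51 (adjusted p = 0.027) and RPN10 0.053 (adjusted p = 0.79), so their direction depended on that step. RPN10 was the lowest and RPN9 the second lowest of the 32 members in all 26 settings tried. Many of these settings could not change the order at 1 h. Not centring shifts all genes alike. Dropping the dye term, fitting 1 h alone or leaving out arrays of other times leaves the 1 h means as they were.

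**Figure D2:**
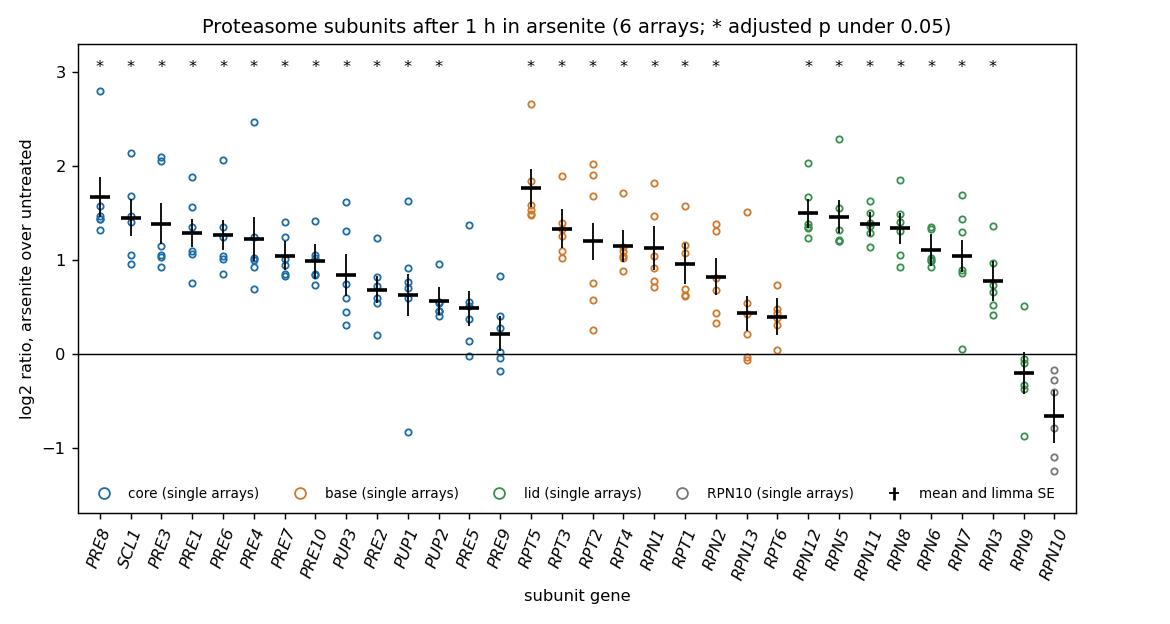
Log2 ratios after 1 h (arsenite over untreated, centred on the median gene) for each subunit gene. Open circles are the 6 arrays, coloured by subcomplex, the black mark is the mean with its limma SE, and a star is an adjusted p under 0.05. The 26 starred genes have means from 0.56 (PUP2) to 1.76 (RPT5), while RPN9 and RPN10 have means below 0, a sign that turns for both when the brightness trend is removed.

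PRE9, RPN9, RPN10 and RPN13 share a property that the choice of members did not use: yeast grows without each of them, while the other subunits shown here are generally essential. These 4 were grouped after their values were seen, so the contrast is a description. None of them was called at 1 h, against 26 of the other 28 members, and their median fitted value was 0.00, against 1.13 for the other 28. At 15 min, 30 min and 18 h their medians were 0.37, 0.25 and -0.25, against 0.70, 0.97 and 0.27. PRE9 alone was above the others' median at each of these times (0.97, 1.18 and 0.56). It was called at 30 min, as were 9 of the other 28. At 1 h all 4 lay among the lowest 6 members in each of the 26 settings, and among the lowest 5 in 25 of them. The settings reuse the same arrays, and many of them could not change the order at 1 h, as said above. With the brightness trend removed they were the lowest 4, with RPN13 at 0.74 and PRE9 at 0.80 beside RPN9 and RPN10 as given above, and the next member, the essential ATPase RPT6, stood at 0.83, close to PRE9.

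In all 3 subcomplexes most genes were higher at 1 h. Called were 12 of 14 core genes, 7 of 9 base genes and 7 of 8 lid genes, with median fitted values of 1.01, 1.12 and 1.22. The median over a subcomplex on each array averaged 0.99 ± 0.32 for the core, 1.03 ± 0.41 for the base and 1.22 ± 0.21 for the lid (SD, n = 6 arrays). The lid median exceeded the core median on 5 of the 6 arrays, by 0.23 ± 0.21 on average (SD), and the base median exceeded it on 3, by 0.04 ± 0.27. The lid exceeded the base on 4 of 6 arrays, by 0.19 ± 0.30. These differences were about as large as their spread over arrays (lid minus core) or smaller than it (base minus core and lid minus base). They are descriptions, as the members were chosen with earlier results of these data known, and the choice of measure matters: with RPN10 counted in the lid, the lid minus the base was -0.02 in place of 0.10 by medians of fitted values, while by per-array medians the lid averaged 1.13 against 1.03 for the base. The alpha ring median differed from that of the beta ring by -0.03 ± 0.16.

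The lid stood differently against the core at the earlier times. At 15 min the lid median was below the core median on all 3 arrays, by -0.23 ± 0.08, and at 30 min again on all 3, by -0.17 ± 0.12. At 18 h it was above on 1 of 3 arrays, with a mean difference of -0.04 ± 0.23. The base lay below the core on 2 of 3 arrays at 15 min (-0.27 ± 0.33) and on all 3 at 30 min (-0.26 ± 0.06), and above it on 2 of 3 at 18 h (0.22 ± 0.40). Whether these differences change with time was not tested.

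**Figure D3:**
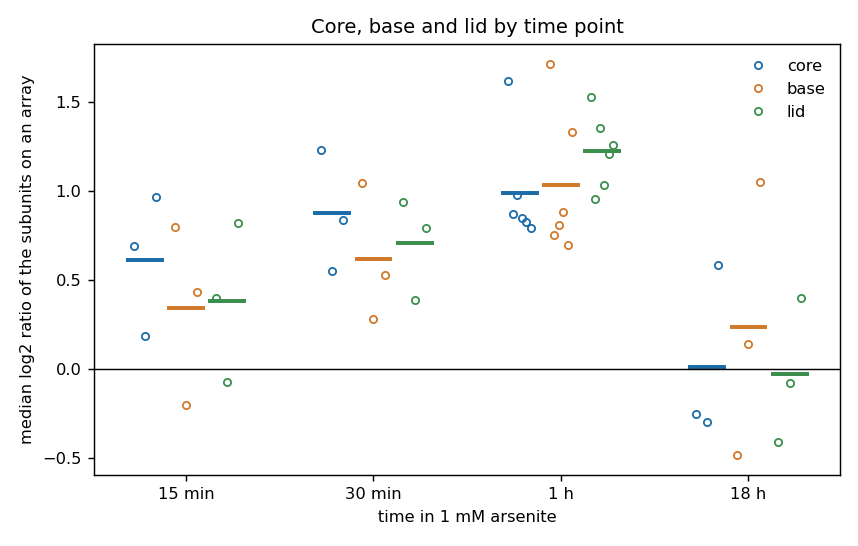
Median log2 ratio of core, base and lid subunits on each array, by time in 1.0 mM arsenite. Circles are arrays and bars their means. At 1 h the 3 means lie between 0.99 and 1.22 with overlapping arrays, and at 18 h the arrays of every subcomplex spread on both sides of 0.

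After 15 min, 1 of 32 members was called higher, and 0 lower, where 0.668% of all genes were higher and 0.0181% lower. All 32 fitted values were above 0, with a median of 0.68 (30 of them, with a median of 0.42, when fitted without the dye term). An unadjusted p under 0.05 was found in 14 of the 32, against 539 of the 5539 genes, and all 3 arrays were above 0 for 15 members (15.1% of all genes). The called gene was PRE1, a structural beta subunit, with 1.10, 0.98 and 0.55 on the 3 arrays. Its fitted value of 1.19 ± 0.26 (2.28-fold, adjusted p = 0.044) exceeded all 3 of these, as the dye effect was subtracted, and their mean was 0.88. The call was lost when any 1 of 13 arrays was left out and in 8 of 10 other settings. RPT5 had 0.80, 0.14 and 0.85 at this time, and RPN12 had 0.39, 0.53 and 1.01. The median over members was lowest on replicate 2, at 0.04, against 0.62 and 0.77 on replicates 1 and 3.

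After 30 min, 10 members were called higher and 0 lower, where 3.27% of all genes were called higher and 4.48% lower. They were 5 core genes (PRE1, PRE2, PRE6, PRE7 and PRE9), the ATPases RPT2 and RPT3, and the lid genes RPN7, RPN11 and RPN12. The median fitted value of the members was 0.95 against 0.05 over all genes, and 27 members had all 3 arrays above 0 (27.2% of all genes did). PRE1 had 1.53, 0.81 and 0.75 on the arrays and a fitted value of 1.35 ± 0.26 (adjusted p = 0.0092), a call kept without each of the 15 arrays in turn and lost without centring, with arrays scaled to equal spread and with the 30 min arrays fitted alone. RPN11 had 1.28, 0.83 and 1.34, with a fitted value of 1.10 ± 0.23 (adjusted p = 0.013). RPN12 had 0.83, 1.05 and 1.30, with a fitted value of 1.14 ± 0.27 (adjusted p = 0.020). The fitted values of RPT2 (1.24 ± 0.34), RPN7 (1.13 ± 0.30) and PRE6 (1.06 ± 0.28) lay above all 3 of their arrays, whose means were 0.57, 0.69 and 0.76. Leaving out 30 min replicate 1, 2 or 3 left 4, 2 and 1 calls. Leaving out 1 h replicate 1, 2, 3, 4 or 6, which enter through the dye effect and the spread, left 6, 3, 4, 5 and 6. Of the 10 genes, 9 were also called at 1 h.

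PRE9 was the exception. It was called at 30 min, with 1.56, 0.77 and 0.62 on the arrays and a fitted value of 1.18 ± 0.32 (adjusted p = 0.035). At 15 min it had 0.92, 0.19 and 1.21, and at 1 h it ranged from -0.19 to 0.83. The difference of 1 h minus 30 min, -0.97 ± 0.37, was not called (adjusted p = 0.81). RPN10, RPN9, RPN13 and RPT6, also not called at 1 h, were each below 0 on at least 1 of the 6 earlier arrays. This was not particular to them, as only 15 of the 32 members had all 3 arrays above 0 at 15 min. RPN10 had 0.76, -0.55 and 0.51 at 15 min and 0.98, -1.15 and -0.88 at 30 min. RPN9 had 0.39, -0.86 and 0.61 at 15 min and 0.43, -0.89 and -0.67 at 30 min. For both genes the 30 min array above 0 was replicate 1, whose duplicate spots correlated at 0.837. RPN13 had 0.42, -0.56 and 0.37 at 15 min and 0.71, -0.02 and 0.06 at 30 min. RPT6 had 0.56, -0.26 and 0.81 at 15 min and 1.04, 0.21 and 0.39 at 30 min. PRE5 was above 0 on all 6 of these arrays, with 0.61, 0.36 and 1.06 at 15 min and 1.05, 0.79 and 0.97 at 30 min.

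The members highest in their groups at 1 h were mostly above 0 before it. PRE8 had 1.13, 0.17 and 1.36 at 15 min and 1.28, 0.38 and 0.83 at 30 min. PRE3 had -0.30, 0.03 and 1.03 at 15 min and 1.53, 0.35 and 0.84 at 30 min. RPT5 had 0.93, 0.59 and 1.09 at 30 min. PUP1, the lowest of the beta ring at 1 h, had -0.05, 0.41 and 0.71 at 15 min and 0.96, 0.59 and 1.03 at 30 min. From 15 to 30 min, 27 of 32 members had a higher fitted value, with a median difference of 0.26 against -0.06 over all genes. That count rested on single arrays and on the processing. It was 16 (median 0.01) without 15 min replicate 2 and 18 (0.06) without 30 min replicate 1. Not centred it was 3 (-0.32), and with the brightness trend removed 32 (0.77). From 30 min to 1 h, 19 had a higher fitted value, with a median of 0.07. This count was 27 without 30 min replicate 1 and 13 without 30 min replicate 2. In either step limma called 0 members and 0 of all genes, and 1 member had an unadjusted p under 0.05 in each, against 383 and 286 of all genes.

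After 18 h, 0 members were called in either direction, where 5.33% of all genes were called higher and 3.16% lower, and 3 of the 32 had an unadjusted p under 0.05, against 1233 of the 5539 genes. Their median fitted value was 0.23 and fitted values ran from -1.09 (RPN9) to 0.82. All 3 arrays were above 0 for 3 members, where 23.8% of all genes had this. Replicates differed: 5, 10 and 28 of the 32 members were above 0 on replicates 1, 2 and 3. PRE8 had -0.85, -0.26 and 0.39, PRE3 had -0.21, -0.15 and 0.95, and RPT5 had -0.49, 0.33 and 1.00. RPN9 was below 0 on every 18 h array, at -1.78, -1.34 and -0.82 (fitted -1.09 ± 0.39, adjusted p = 0.10).

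Relative to the median gene, 30 of 32 members had lower fitted values at 18 h than at 1 h, with a median difference of -0.68 against 0.04 over all genes; without centring the members' median difference turned to 0.86, since the arrays themselves differed in level. The lid genes had a median difference of -1.21, the core genes -0.68 and the base genes -0.61. Lower at 18 h by limma were RPN5 and RPN11, where 0.361% of all genes were called lower. RPN11 had 0.30, 0.42 and 0.33 at 15 min. It had -0.02, 0.02 and -0.39 on the 18 h arrays against 1.14 to 1.62 at 1 h, a difference of -1.56 ± 0.26 (adjusted p = 0.011). RPN5 had 0.53, -0.12 and 0.95 at 15 min and 0.89, 0.39 and 0.87 at 30 min. It had -0.40, -0.04 and -0.31 at 18 h against 1.20 to 2.28 at 1 h, a difference of -1.60 ± 0.35 (adjusted p = 0.031). In both genes the 2 times did not overlap.

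Both calls depended on single arrays. RPN11 lost its call without 1 h replicate 5 (-1.47, adjusted p = 0.073) or 18 h replicate 3 (-1.43, adjusted p = 0.053). RPN5 lost its call without 1 h replicate 2, 4 or 5 or 18 h replicate 1 or 3 (-1.51 to -1.68, adjusted p up to 0.16). Without 30 min replicate 1, which enters through the spread only, 4 members were called lower. PRE8 differed by -1.65 ± 0.43, the lowest value of all members, and was not called (adjusted p = 0.076). All 3 arrays at 18 h were below all 6 at 1 h for 14 members, where 5.22% of all genes had this. They included PRE8, PRE1, RPT5, RPN12, RPN8 and RPN6. RPN12 had -0.12, 0.08 and 0.57 at 18 h, PRE1 had 0.09, 0.10 and 0.41, and PRE5, not among the 14, had 0.03, -0.39 and 0.65.

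Among members that were low at 1 h, the 18 h arrays gave PRE9 0.20, 0.03 and 0.85, RPT6 -0.41, -0.10 and 1.06, PUP1 -0.49, -0.13 and 0.67, and RPN10 -1.0, -0.28 and 0.67. RPN13 was below 0 on all 3 arrays, at -0.95, -0.96 and -0.21. PRE9 was thus the only member of these 5 above 0 on every 18 h array.

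The members are bright spots. Brightness was recovered from the 10 arrays whose deposited ratios were ratios of whole numbers, and all 32 members lay between the 77.4th and the 96.3rd percentile of it over all genes. The brightest members were RPN10 (96.3) and RPN9 (96.0), which were also those with fitted values below 0 at 1 h. On each array, the mean log2 ratio of the brightest eighth of genes was set against that of the dimmest. This difference ran from -1.88 to 0.57 over the arrays. It was -1.57 on 15 min replicate 2, and 0.41 and 0.54 on replicates 1 and 3. At 30 min it was 0.08 on replicate 1, and -1.86 and -1.88 on replicates 2 and 3. It ran from -1.62 to -0.12 at 1 h, and at 18 h it was -1.53, -0.73 and 0.57.

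At every time point the array with the highest value of this difference also had the highest median over members. At 1 h this was replicate 1, with a median of 1.62 against 0.87 to 1.05 on the other 5. At 18 h the medians over members were -0.37, -0.11 and 0.64, in the same order as the brightness difference. Removing a smooth trend on brightness from each array narrowed the spread of the members' median between arrays: the SD became 0.13 in place of 0.39 at 15 min, 0.31 in place of 0.33 at 30 min, 0.18 in place of 0.29 at 1 h and 0.07 in place of 0.53 at 18 h. The mean over arrays became 0.57 in place of 0.48, 1.40 in place of 0.73, 1.51 in place of 1.06 and 0.36 in place of 0.05, in order of time. At 18 h, 26, 23 and 22 members were then above 0 on the 3 arrays.

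**Figure D4:**
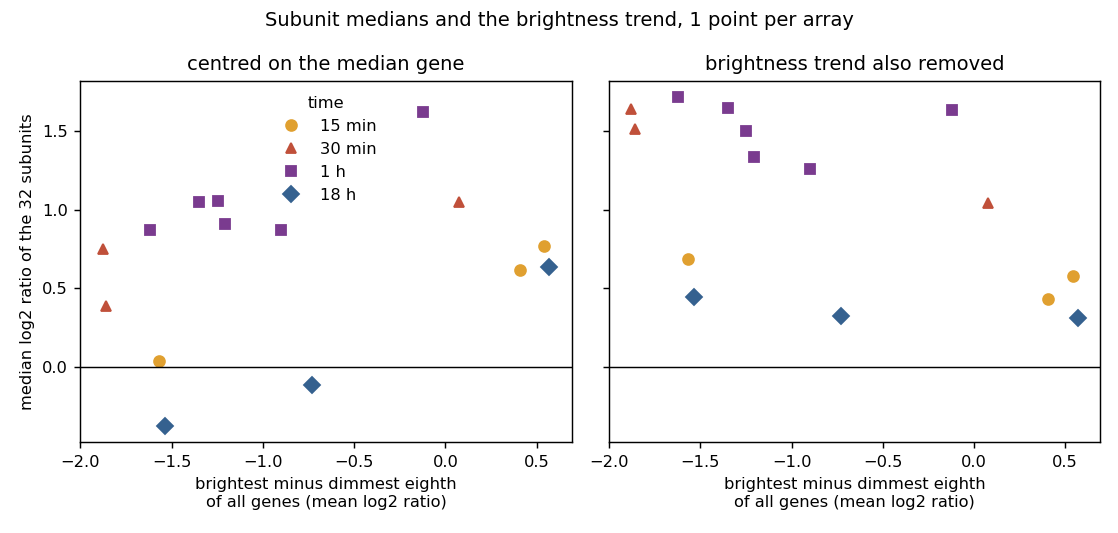
Median log2 ratio of the 32 subunits on each array (y) against the mean log2 ratio of the brightest minus the dimmest eighth of all genes on that array (x), with values centred on the median gene (left) and with the brightness trend also removed (right). Points are the 15 arrays by time. On the right the 3 arrays at 18 h lie between 0.31 and 0.45, in place of -0.37 to 0.64 on the left.

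With the trend removed, the calls grew in number. At 1 h 31 members were called higher (21.8% of all genes), all except RPN10. At 30 min 30 were (6.88% of all genes), all except RPN9 and RPN10. At 15 min the 2 called were PRE8 and RPT3 (0.975% of all genes), and at 18 h the 5 called were SCL1, PRE9, PRE4, RPT3 and RPN1 (9.26% of all genes). Between 18 h and 1 h, 15 members were then lower at 18 h (1.84% of all genes). Left at the deposited level instead, without centring, the members had a 1 h median of 0.52, 26 of 32 were above 0, and the calls were PRE8 and RPT5 higher (1.12 and 1.21, 2.89% of all genes) and RPN10 lower (-1.22, 23.6% of all genes). At 15 min, 30 min and 18 h, 0 members were then called higher, against 0.758%, 0.614% and 6.28% of all genes. The median over members on an array was then 0.51 ± 0.82 (SD, n = 6), above 0 on 4 of 6 arrays. Over all genes this setting moved the median fitted value to 0.85, 0.25, -0.53 and 1.02 in order of time. It made 10.9% of all 1 h calls higher in place of 43.1%, 33.7% in place of 42.2% at 30 min, and 97.8% in place of 62.8% at 18 h, so changes in absolute amount cannot be read from these arrays.

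**Figure D5:**
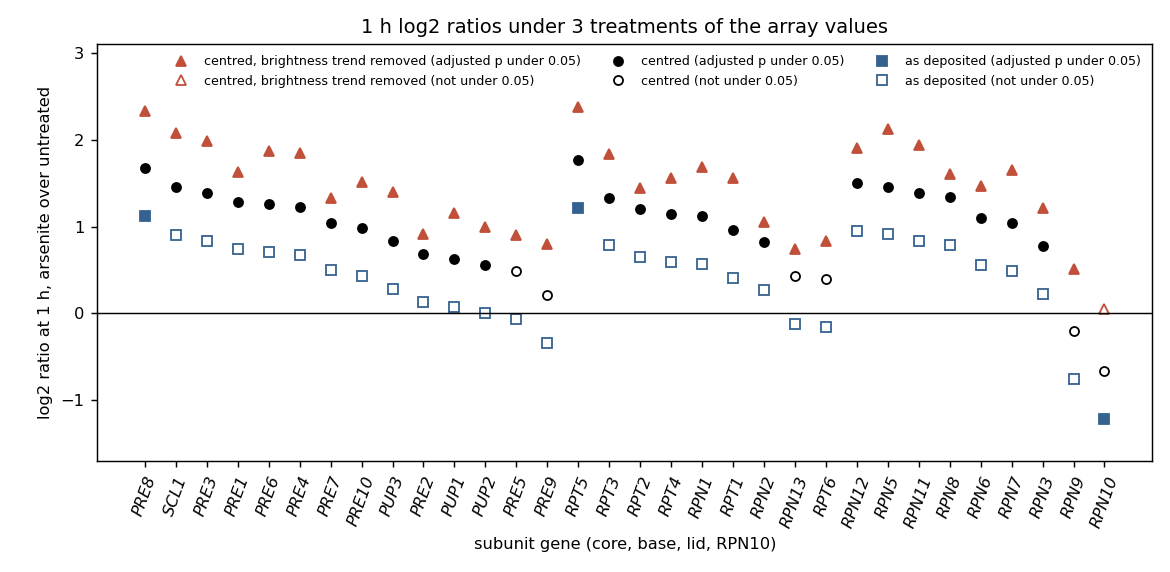
Fitted 1 h log2 ratios of each subunit with the brightness trend removed (triangles), centred on the median gene (circles) and as deposited (squares). Filled symbols have an adjusted p under 0.05. The order of the subunits is similar in the 3 treatments, with RPN10 and RPN9 lowest in each, while the number of filled symbols above 0 is 31, 26 and 2.

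Other genes of the proteasome pathway were taken from a list of 20. At 1 h, 12 were called higher and 1 lower, against 17.1% higher and 22.6% lower over all genes. These calls too are relative to the median gene. Of the 13 calls, 10 were lost without centring and 7 on the Cy5 arrays alone. RPN4, the activator of the subunit genes, was raised most, with arrays from 2.44 to 3.55 and a fitted value of 3.03 ± 0.27 (8.18-fold, adjusted p = 3.9e-07). It was also called at 15 min, with 2.03, 1.49 and 2.87 (2.26 ± 0.47, adjusted p = 0.034), and at 18 h, with 0.25, 2.77 and 1.48 (1.63 ± 0.47, adjusted p = 0.043). How far these calls at 15 min and 18 h depend on single arrays is not given here. At 30 min RPN4 had 1.18, 0.07 and 0.18 and was not called (fitted 0.61), when 10 members were. The differences of RPN4 between 30 min and its neighbouring times were not called either (-1.66 from 15 min, adjusted p = 0.51, and 2.42 to 1 h, adjusted p = 0.35).

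The genes of all 3 shuttle factors, which carry ubiquitinated proteins to the proteasome, rose at 1 h. DDI1, a shuttle with a protease-like domain, rose by 2.67 ± 0.17 (6.35-fold, adjusted p = 2.1e-08), DSK2 by 0.79 ± 0.21 and RAD23 by 0.76 ± 0.20. DDI1 was called at every time point, including 18 h (0.52, 1.00 and 1.52 on the arrays, fitted 1.26 ± 0.30, adjusted p = 0.019).

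Of 9 assembly chaperone genes, 3 rose at 1 h. They were UMP1, which is built into the maturing core and degraded there, at 1.37 ± 0.16, PBA1, which guides the alpha ring, at 1.27 ± 0.14, and NAS6, which escorts an ATPase of the base, at 0.62 ± 0.16. The other base chaperones were not called, with 0.44 for NAS2, 0.42 for RPN14 and -0.06 for HSM3. Nor were the alpha ring chaperones ADD66 (0.28), IRC25 (0.40) and POC4 (-0.12).

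Of the genes of 7 associated factors, 5 rose at 1 h and 1 fell. The ubiquitin-recycling protease UBP6 rose by 1.18 ± 0.20, the adaptor ECM29 by 1.00 ± 0.22, the core activator BLM10 by 0.90 ± 0.16 and the ubiquitin ligase HUL5 by 0.85 ± 0.23. SPG5, a proteasome regulator of stationary phase, rose by 0.74 ± 0.16 at 1 h. CIC1, known both as a proteasome adaptor and as a ribosome assembly factor, fell by 1.75 on the log2 scale (SE 0.26). FUB1 was not called (0.32). SPG5 was higher still at 18 h, when it had 1.85, 2.48 and 3.04 on the arrays (fitted 2.79 ± 0.28, adjusted p = 3.7e-05), and it was 2.05 ± 0.32 higher at 18 h than at 1 h (adjusted p = 0.0092).

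A divergently transcribed neighbour shares the upstream region of a gene. In the RefSeq gene table of assembly R64, used here for neighbours only, 21 members have such a neighbour, and 17 of these neighbours were measured. At 1 h, 3 of the 17 neighbours were called higher (17.6%, against 17.1% of all genes) and 8 lower (47.1%, against 22.6%), with a median of -0.32. PRE2, higher by 0.68, lies beside RPL11A, a ribosomal protein gene with a near-identical copy that the probe may also bind, at -4.33 ± 0.38. RPN5, higher by 1.46, lies beside NOP14, a gene of ribosome assembly, at -1.27 ± 0.24. The neighbours called higher were YPI1 beside RPN11 at 1.97, ALG13 beside RPT6 at 0.91 and YTH1 beside RPN7 at 0.53.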

How the data were processed

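The authors deposited 1 log2 ratio per spot and array for 13056 spots on 15 2-colour arrays; the log base and the likely direction, treated over untreated, were read from the values and the dye labels. The sources used here do not give background correction, scanning or normalisation. The values of 10 arrays were exactly log2 of ratios of whole numbers up to 65535 (relative tolerance 5e-14). The 3 Cy3 arrays held 30, 5 and 23 zeros written as minus 0, a mark of values turned in sign before deposit. The other 5 arrays, these 3 among them, did not hold such ratios. The scale of 15 min replicate 1 and 30 min replicate 1 was taken from the other arrays.

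Of the spots, 11138 had 1 gene name in the platform annotation, 0 had several and 1918 had none. Spots of a gene were averaged (5539 genes), each array was centred on its gene median, and all 15 arrays were fitted with limma 3.58.1 (lmFit, eBayes) in R 4.3.3, with 4 time-point means and 1 dye effect per gene (residual df 10, prior df 5.41). Each mean was tested against 0 and each time against the one before, two-sided, with Benjamini-Hochberg adjustment over all genes and calls at an adjusted p under 0.05. The procedure was tested on simulated data with independent noise per gene and array. These held no array-wide, brightness or dye pattern, so the simulation cannot show how such patterns affect the calls.

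Brightness was the mean log2 of numerator and denominator of the reduced whole-number ratio, which can understate a spot, as a median over 10 arrays. The trend was a lowess curve (span 0.3) per array, applied to all 15. Signal over background is unknown, and the number of arrays limits precision. Values by array (at 1 h as lowest, median and highest) are given for the highest and lowest member at 1 h in each ring, the base and the lid, for RPN10, for members not called at 1 h, and for those called at 15 min or in a difference between times. The members, gene lists and tests were chosen with earlier results of these data known. A promoter motif search had been planned; promoter sequences were not used here.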

Additional observations from a re-analysis of the deposited data

Results flagged for a closer look

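Several 1 h values stood far from the other 5 arrays of their gene, by the gap of the highest array to its nearest neighbour relative to the whole range (Dixon's criterion). The test was run on 49 groups of 6 arrays and marked 8, where chance alone marks about 1 in 20 of separate groups. These groups share the same 6 arrays, and some are medians over genes also tested singly, so they are not separate trials. On 1 h replicate 1, PRE8 was 2.80 (others 1.32 to 1.58), RPT5 2.66 (1.47 to 1.84), PRE4 2.47 (0.68 to 1.24), RPN5 2.28 (1.20 to 1.55) and RPT4 1.72 (0.88 to 1.13). The median over all members on that array was 1.62 (others 0.87 to 1.05), and that over the core was also 1.62 (0.79 to 0.98). PUP2 was 0.95 on 1 h replicate 3 (others 0.40 to 0.56). Replicate 1 had treated RNA in Cy3 and a brightness difference of -0.12, against -1.62 to -0.90 on the other 1 h arrays; with the trend removed its median over members was 1.63 and the others ran from 1.26 to 1.71. Without this array 25 members were called at 1 h in place of 26.

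Between time points, 3 genes differed by limma's test of the difference itself, 18 h minus 1 h. RPN5 differed by -1.60, RPN11 by -1.56, and the associated factor SPG5 by 2.05.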

How the results depend on the processing

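Members called higher at 15 min numbered 1. They numbered 0 without centring, with arrays scaled to equal spread, without the dye term, on Cy5 arrays alone, with the time point alone, on the second spot alone and without 15 min replicate 1 and 30 min replicate 1 together, and 2 with the trend removed (0 to 1 leaving out 1 array). At 30 min the 10 calls became 0 without centring, scaled or with the time point alone, and 30 with the trend removed. They became 5 without 15 min replicate 1 and 30 min replicate 1 together (1 to 14 leaving out 1 array). At 1 h the 26 calls became 2 without centring and 17 on Cy5 arrays alone, and were 25 to 31 in the other settings. RPN10 was lower at 1 h (1 call in place of 0) without centring, with the time point alone, and without 30 min replicate 1, alone or with 15 min replicate 1 (0 to 1 leaving out 1 array). At 18 h, 5 members were higher with the trend removed, and 1, RPN9, was lower without the dye term, on Cy5 arrays alone and with the time point alone. The 2 members lower at 18 h than at 1 h became 0 without centring or scaled, 15 with the trend removed and 10 without the dye term. They became 5 without 15 min replicate 1 and 30 min replicate 1 together, and 1 on the first spot (0 to 4 leaving out 1 array). The 1 h medians of core, base and lid were 0.46, 0.57 and 0.67 without centring, and 1.45, 1.55 and 1.63 with the trend removed. PRE9 (-0.34), PRE5 (-0.066), RPT6 (-0.16) and RPN13 (-0.12) reversed without centring, and RPN9 (0.51) and RPN10 (0.053) with the trend removed. The cause of these changes was not tested.

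With the replicate number as a block, 1, 10, 26, 0 and 2 members were called, the same counts in order of time and for 18 h minus 1 h. Pairing by number is not stated, and of 18 same-numbered pairs of arrays 6 had deviations correlated above 0.1 (r from -0.549 to 0.635). The promoter motif search was not run.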
